A study of Homo sapiens with 4 samples.

Results

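ATF4 and 9 genes of the stress responses in which it acts were examined for RNA polymerase II (Pol II) peaks in ovarian cancer cells with and without a hairpin against RRN3. The 10 genes were ATF4, DDIT3, DDIT4, SESN2, TRIB3, PPP1R15A, ASNS, CHAC1, HSPA5 and XBP1, out of 20033 annotated protein-coding genes. They were chosen by name, as widely used readouts of the integrated stress response and the unfolded protein response, with earlier results of these data known. The rule itself uses no peak value.

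In the integrated stress response, kinases that sense stress phosphorylate the translation initiation factor eIF2α, which lowers protein synthesis at large but raises translation of the mRNA for ATF4, a transcription factor. The unfolded protein response is the answer to misfolded protein in the endoplasmic reticulum (ER) and is run by the sensors PERK, IRE1 and ATF6. PERK is an eIF2α kinase, IRE1 splices the XBP1 mRNA, and ATF6 is cleaved to a transcription factor that binds ER stress response elements in promoters such as that of HSPA5.

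The cells were SK-OV-3, an established human ovarian cancer line, made to carry stably, from a lentiviral vector with puromycin selection, either a hairpin against RRN3 (shRRN3), an initiation factor of RNA polymerase I, or a control hairpin against bacterial LacZ (shLacZ). The labels name no stress treatment, and which of the study's RRN3 hairpins was used and whether the lines were clones are not given in the sources used here. Chromatin bound by Pol II was immunoprecipitated and sequenced (ChIP-seq), and the data were 1 peak list per hairpin, so the hairpins differ here by single libraries, without replicates, and no test was made. The labels also list 1 input library per hairpin, and these 2 inputs were not analysed here.

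In all there were 4014 peaks for shLacZ and 14363 for shRRN3. On chromosomes 1 to 22, X and Y these were 3920 peaks covering 1.61 Mb and 14322 covering 7.75 Mb, so a gene was more likely to carry a peak in shRRN3 whatever its function. The lists hold no read counts and the depth is unknown from them. Each peak carries a score from the peak caller, which depends on depth and was used to give a peak its place within its own list, with 1 as the highest score, and in an alternative as a minimum for both lists. RRN3 itself carried 0 peaks, counting 5 kb on each side, so the knockdown cannot be checked in these lists. Of 8 genes that mark epithelial or ovarian cancer cells, PAX8 had a peak at its start in shLacZ, and KRT8, KRT18, EPCAM and PAX8 had one in shRRN3. The other markers, KRT19, ERBB2, MUC16 and WT1, had none in either list. None of 6 markers of other cells (PTPRC and CD3E of blood, PECAM1 of endothelium, ALB of liver, INS of pancreatic islets and GFAP of astrocytes) had one in either list. Over all protein-coding genes the shares were 7.75% in shLacZ and 24.6% in shRRN3, so a lack of peaks at 6 genes says little.

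The DNA in front of some of these genes is shown first. Peaks described below lie over all or part of the stretches of HSPA5, XBP1, ATF4 and PPP1R15A. Those of ASNS and CHAC1 carried no peak in either list. All sequences are RefSeq sequences of GRCh38.p14, written 5′ to 3′ on the strand of the gene, with the last base before the RefSeq start as position −1. HSPA5 encodes BiP, the main ER chaperone, and XBP1 encodes a transcription factor of the unfolded protein response. Their promoters were chosen because both hold an exact match to the ER stress response element searched here, CCAAT and CCACG with 9 bases between them, whose 2 boxes are in capitals. The stretches run from position −250 to the last base before any annotated exon, chr9:125241383-125241593 on the minus strand for HSPA5 and chr22:28800598-28800819 on the minus strand for XBP1.
HSPA5: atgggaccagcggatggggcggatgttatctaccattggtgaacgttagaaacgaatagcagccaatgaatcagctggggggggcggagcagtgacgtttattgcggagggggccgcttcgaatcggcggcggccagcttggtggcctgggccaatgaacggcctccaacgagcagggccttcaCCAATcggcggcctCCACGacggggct
XBP1: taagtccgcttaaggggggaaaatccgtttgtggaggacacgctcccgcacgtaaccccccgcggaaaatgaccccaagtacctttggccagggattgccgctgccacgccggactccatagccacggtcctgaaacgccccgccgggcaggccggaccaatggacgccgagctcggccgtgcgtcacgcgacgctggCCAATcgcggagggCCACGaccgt

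The match lay from −66 to −48 in HSPA5 and from −52 to −34 in XBP1. Among the windows of 250 bases before to 50 bases after the start of 15345 protein-coding genes, 19 held this element, or 0.124%. The CCAAT box alone, which lies within the element, was found in 36.6% of windows and in those of DDIT3, DDIT4, SESN2, CHAC1, HSPA5 and XBP1.

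The second motif was TGATGNAA, where N is any base, a form of the element bound by ATF4 together with C/EBP proteins. It was found on either strand in 2.54% of windows and in those of ASNS and CHAC1, and is shown in capitals in 30 bases from chr7:97872458-97872487 on the minus strand and from chr15:40953251-40953280 on the plus strand.
ASNS: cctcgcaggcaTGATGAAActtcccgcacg
CHAC1: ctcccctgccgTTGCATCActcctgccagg

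In ASNS the match began at −68, and in CHAC1 it lay on the opposite strand and began at −209. TGACGTGG, a form of the site bound by ATF6 and spliced XBP1, was in 0.847% of windows and in that of none of the 10 genes.

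ATF4 and PPP1R15A each held TATAAA, the TATA box, which was in 9.63% of windows. Their boxes are shown in capitals in 30 bases from chr22:39520520-39520549 and chr19:48872379-48872408, both on the plus strand.
ATF4: agagacgaagtcTATAAAgggccggcgggc
PPP1R15A: ggcgcggtaggcTATAAAagcctagtggcc

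A match to letters is a description of the sequence and not evidence of binding. The windows of the 10 genes had a median GC share of 65.3%, against 63% over all windows.

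Peaks were counted at the start of a gene, within 1 kb either side of the first annotated base, in the body, from 1 kb past the start to the annotated end, and past the end, in the 5 kb that follow. A peak counted when it shared at least 1 bp with the region. In shLacZ, ATF4, DDIT3, PPP1R15A, HSPA5 and XBP1 carried a peak at the start, which is 5 of 10 genes (50%, exact 95% Clopper-Pearson interval 18.7% to 81.3%) against 7.75% of all protein-coding genes. In shRRN3 the same 5 genes and DDIT4 did, which is 6 of 10 (interval 26.2% to 87.8%) against 24.6% of all genes. The intervals cover counting error only and compare these libraries and not the conditions. SESN2, TRIB3, ASNS and CHAC1 had no start peak in either list, as did 74.4% of all genes. All 10 genes span less than 50 kb, and among genes of such spans the shares were 7.93% and 24.3%.

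With the whole gene and 5 kb on each side counted, the same 5 and 6 genes carried peaks, against 14.5% of all genes in shLacZ and 39% in shRRN3. The other 4 had none in either list, against 59.6%.

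A start peak in both lists was thus found at 5 of the 10 genes, against 6.7% of all genes. The shLacZ count of 5 rests on the window and the weaker peaks, since it was 3 with a window of 0.5 kb, 3 by peak midpoint and 1 with a score of at least 65.58. DDIT4 was the 1 gene of the 10 with a start peak in shRRN3 alone, against 17.9% of all genes. None had a start peak in shLacZ alone, against 1.05% of all genes.

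**Figure D1:**
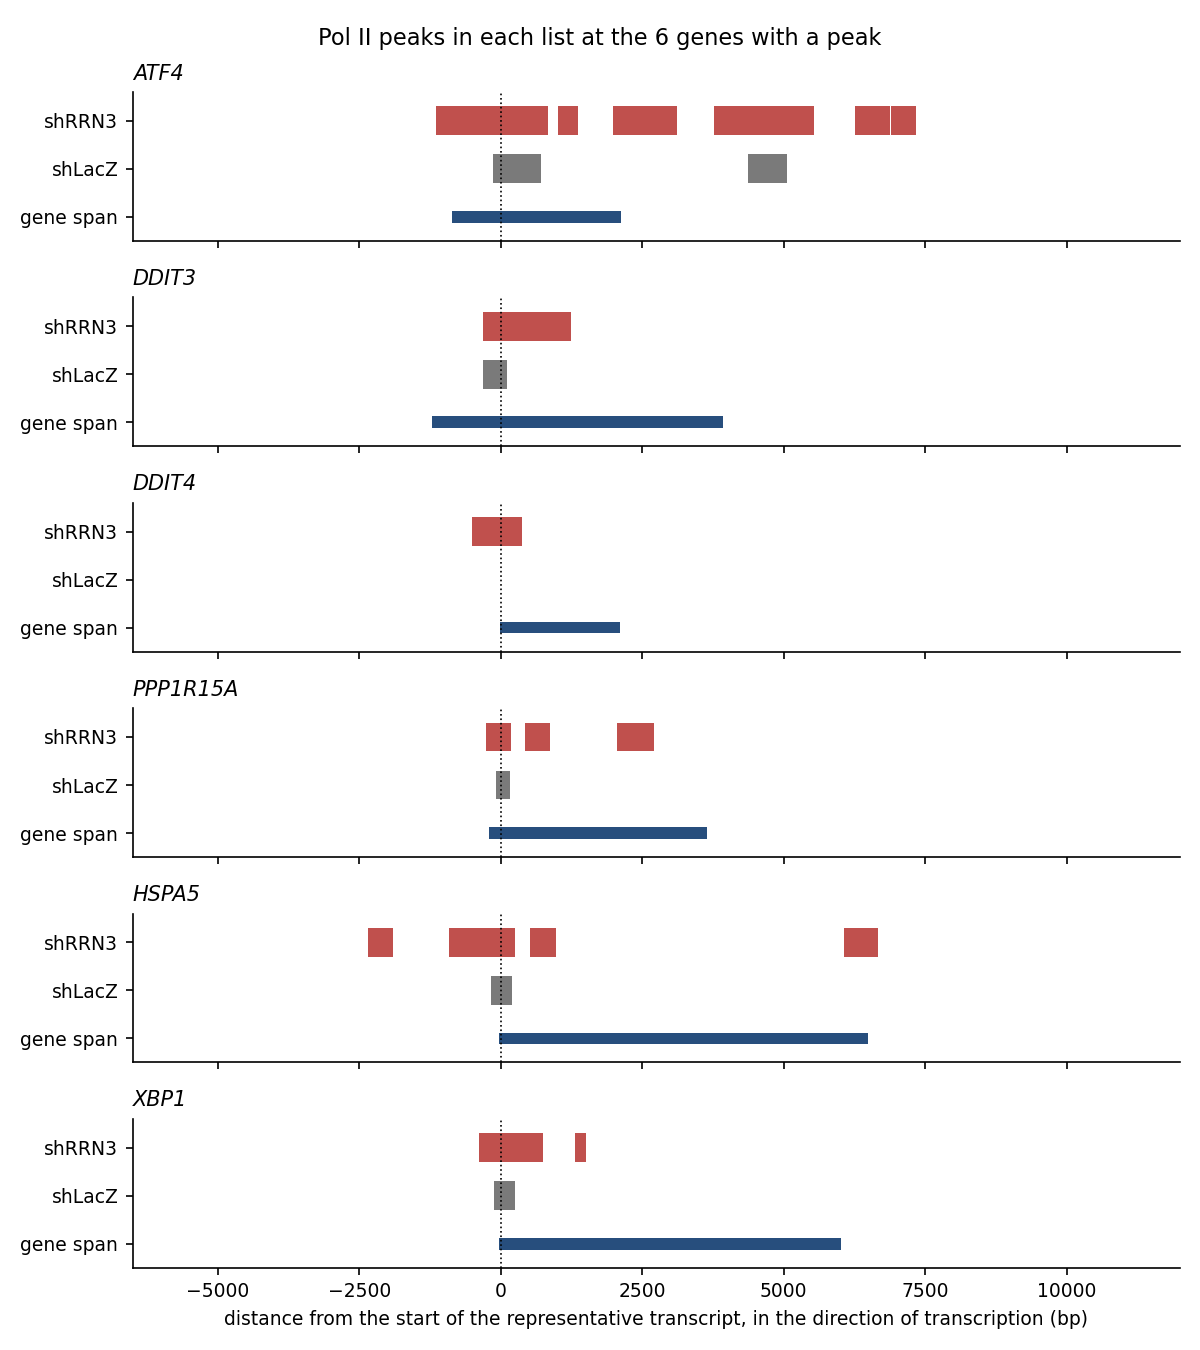
Position of each Pol II peak along the 6 genes that carried one, in bp from the start of the representative transcript (dotted line), with the shLacZ and shRRN3 peaks on separate rows and the annotated gene drawn below. ATF4 has 2 peaks in shLacZ and 6 in shRRN3, which reach past its annotated end.

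Counted over the genes and the 5 kb around them, shLacZ had 6 peaks with a median width of 400 bp (256 to 836 bp) and shRRN3 had 17 with a median width of 623 bp (208 to 1979 bp). Over the whole lists the median widths were 306 and 432 bp, so wider peaks in shRRN3 were general. Each of the 6 peaks in shLacZ shared bases with a peak in shRRN3, while 11 of the 17 shRRN3 peaks overlapped none in shLacZ. The matching shares over all peaks were not computed, so these counts are not a result about these genes. The shRRN3 list is also the longer, with 14322 peaks against 3920. Within its list, 1 of the 6 shLacZ peaks was in the top 10% by score and 4 were in the lower 50%. In shRRN3, 6 of the 17 were in the top 10% and 7 in the lower 50%.

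ATF4, the central transcription factor of the integrated stress response, carried the most peaks of the 10 genes and the highest-scoring one in each list. The gene (ENSG00000128272.18) lies on chromosome 22 from 39519695 to 39522683 on the plus strand, and its representative transcript, the curated default, starts 867 bp inside the span at 39520562. In shLacZ a peak of 836 bp with a score of 228 covered that start, from 39520434 to 39521269, and held place 192, in the top 4.78% of the list. In shRRN3 the peak over the start was 1979 bp wide, from 39519423 to 39521401, scored 368.28 and held place 224, in the top 1.56%. Both were therefore strong peaks in their own list, and the shRRN3 peak began at −1139 bp from the representative start, where the shLacZ peak began at −128 bp.

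Behind the start, a peak of 351 bp in the ATF4 body was found in shRRN3 alone, with a score of 50.35, close to the lowest in the list, at place 14206. Around the annotated end, a shRRN3 peak of 1130 bp ran from 39522546 to 39523675, scored 258.04 and held place 502, in the top 3.50%. No shLacZ peak overlapped either of them. The end region of ATF4 thus had a peak in the upper part of one list and none in the other.

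Further along, both lists had a peak past the ATF4 end. The shLacZ peak ran from 39524931 to 39525613, or 2248 to 2930 bp past the end, scored 78.93 and held place 1379. The shRRN3 peak over the same bases ran from 39524325 to 39526101, or 1642 to 3418 bp past the end, scored 180.74 and held place 1157, in the top 8.06%. It was followed by peaks of 623 and 440 bp with scores of 66.29 and 69.46, the last ending 5210 bp past the gene. None of the peaks beyond the end overlapped another annotated gene or its start. The next gene, RPS19BP1 on the minus strand, has its near end 6410 bp past ATF4, and no further peak began within 30 kb in either list.

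In all, peaks covered 683 bp of the 5 kb past ATF4 in shLacZ (13.7%) and 3622 bp in shRRN3 (72.4%), a ratio of 5.30. These amounts placed ATF4 at 117 and at 10 among all protein-coding genes of the respective list, and the genes above it in shRRN3 were VMP1, HIF1A, TPT1, S100A5, HSPA8, SMARCC2, MRPL12, S100A3 and METTL23. Any peak past the end was found at 2.62% of all genes in shLacZ and 8.68% in shRRN3, or 0.998% and 4.16% when peaks within 1 kb of an annotated start were left out, which kept those of ATF4 and HSPA5. A count of 4 or more peaks there, as ATF4 had in shRRN3, was found at 0.0399% and 0.200%. Genes with such a peak had a median of 449 covered bases in shLacZ and 657 in shRRN3. With 1 library per hairpin, these are positions of peaks in 2 lists of unequal length.

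DDIT3 encodes CHOP, a transcription factor induced by ATF4. The gene (ENSG00000175197.13) lies on chromosome 12 from 57516588 to 57521737 on the minus strand, and its representative transcript starts 1223 bp inside the span. In shLacZ a peak of 420 bp from 57520412 to 57520831 scored 65.43 and held place 2050, near the middle of the list. In shRRN3 a peak of 1564 bp from 57519270 to 57520833 scored 179.47 and held place 1178, in the top 8.20%. The edges facing away from the gene lay at −317 and −319 bp from the representative start, so the peaks began within a few bases of each other, and the shRRN3 peak ran on to 1244 bp inside the gene against 102 bp in shLacZ. MBD6, a gene on the other strand, starts 196 bp from the representative start of DDIT3 and lies under both peaks. Which of the pair the Pol II signal belongs to cannot be told apart in a peak list.

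HSPA5 (ENSG00000044574.9, chromosome 9 from 125234853 to 125241382 on the minus strand) showed the widest gap between its places in the lists. In shLacZ its start carried a peak of 379 bp from 125241140 to 125241518 with a score of 51.37 at place 3697, among the weakest of the list. In shRRN3 the peak there was 1177 bp wide, from 125241086 to 125242262, scored 302.57 and held place 352, in the top 2.45%. Over the 1343 genes with a start peak in both lists, the median place of the best start peak was in the top 39.4% of the shLacZ list and the top 15.9% of the longer shRRN3 list, so a higher place by percentage in shRRN3 was general.

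The remaining peaks of HSPA5 were found in shRRN3 alone. One of 467 bp lay 513 to 979 bp inside the gene with a score of 83.60. Another of 605 bp lay over the annotated end, from 125234674 to 125235278, with a score of 109.95 at place 3452. The last, of 448 bp, lay upstream, between −2343 and −1896 bp, with a score of 61.95. A peak between 5 and 1 kb before the start was found at 0.909% of all genes in shLacZ and at 4.77% in shRRN3, and HSPA5 was the 1 member with one, in shRRN3. The upstream peak lies in HSPA5-DT, a noncoding RNA gene on the other strand that starts 320 bp from HSPA5 and whose start is also under the main shRRN3 peak.

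XBP1 (ENSG00000100219.17, chromosome 22 from 28794555 to 28800597 on the minus strand) carried a start peak of 380 bp in shLacZ, from 28800315 to 28800694, with a score of 54.73 at place 3134. In shRRN3 the start peak was 1125 bp wide, from 28799823 to 28800947, scored 181.32 and held place 1146. A second shRRN3 peak of 208 bp, with a score of 53.02 at place 12827, lay 1305 to 1512 bp inside the gene. By percentage these places were 78.1% and 7.98%, beside the medians of 39.4% and 15.9% over all genes with a start peak in both lists. A noncoding RNA gene, ENSG00000226471, starts 114 bp from XBP1 under both start peaks.

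The element with CCAAT and CCACG lay under these peaks in both lists for HSPA5, since the shLacZ peak reached −175 bp, and for XBP1, where it reached −125 bp. Of the 300 bases of the promoter window, peaks covered 225 and 300 at HSPA5 in shLacZ and shRRN3, and 175 and 300 at XBP1.

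PPP1R15A encodes GADD34, which brings a phosphatase to eIF2α and so reverses the phosphorylation that starts the response. The gene (ENSG00000087074.9) lies on chromosome 19 from 48872212 to 48876059 on the plus strand. In shLacZ its start peak of 256 bp, from 48872336 to 48872591, scored 54.55 and held place 3178. In shRRN3 the start peak of 437 bp, from 48872160 to 48872596, scored 79.95 at place 6374. Further shRRN3 peaks of 444 and 656 bp lay 422 to 865 bp and 2057 to 2712 bp behind the representative start, with scores of 74.05 and 68.04. Its start peak was below the middle of the shLacZ list and near the middle of the shRRN3 list, and the added peaks in the gene were of similar strength.

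DDIT4 (ENSG00000168209.6, chromosome 10 from 72273919 to 72276036 on the plus strand) encodes a protein that restrains the growth kinase complex mTORC1. In shLacZ no peak lay at the gene and the nearest was 57415 bp away. In shRRN3 a peak of 877 bp from 72273417 to 72274293 scored 79.83 and held place 6406, in the top 44.6%. That peak also covers the start of a noncoding RNA gene, ENSG00000289506, 220 bp from that of DDIT4.

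The remaining members have roles downstream of ATF4 and had no peak in either list. SESN2, which like DDIT4 restrains mTORC1, lay 155539 bp from the nearest shLacZ peak and 86810 bp from the nearest shRRN3 peak. TRIB3, a pseudokinase that holds ATF4 activity back, was closest to a peak, at 10560 bp in shLacZ and 9945 bp in shRRN3. For CHAC1, an enzyme that degrades glutathione, the distances were 159040 and 159027 bp. For ASNS, which makes asparagine, they were 546421 and 1141708 bp.

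Chromosome 7, on which ASNS lies, had few peaks, and 3.98% of its protein-coding genes in shLacZ and 16.3% in shRRN3 had a start peak. On the chromosomes of the other members these shares ran from 6.71% to 10.2% and from 22.1% to 31.6%. A gene without a peak did not reach the threshold of the peak caller, which does not show that Pol II was absent. ATF4 has 4 annotated pseudogenes, ASNS 5, HSPA5 1 and XBP1 1, which could take reads from them, and none of these copies carried a peak in either list.

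**Figure D2:**
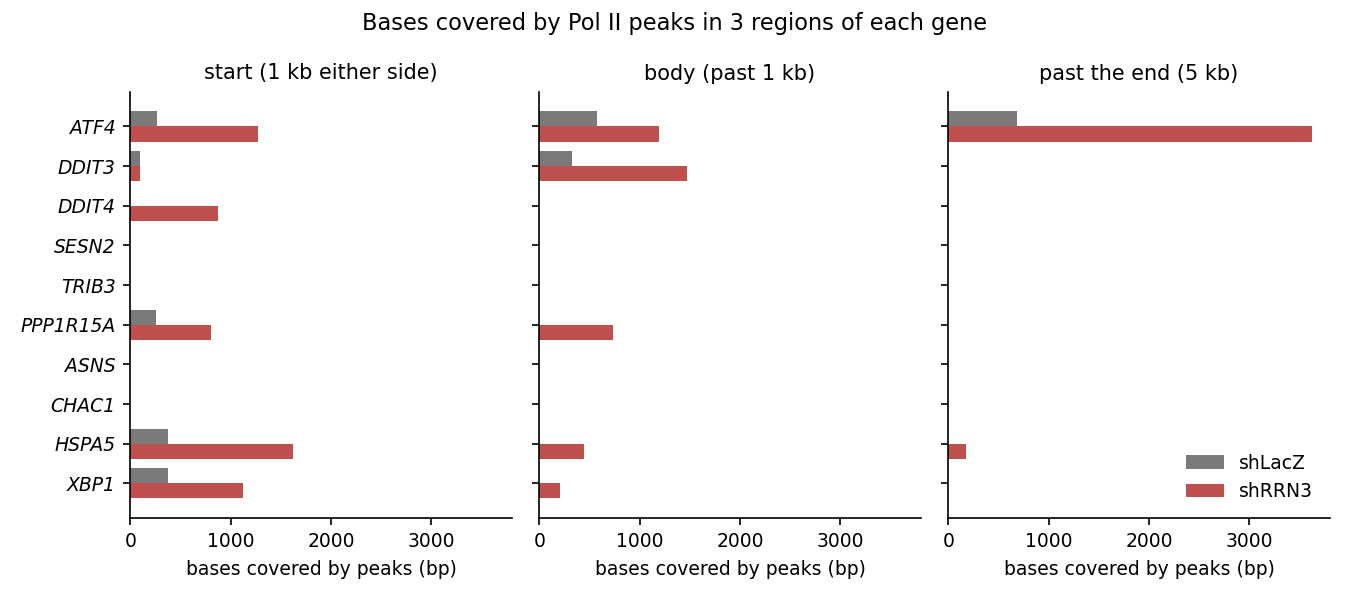
Bases covered by Pol II peaks (bp) in each region of the 10 genes in shLacZ and shRRN3. ATF4 past its end, with 683 and 3622 bp, is the largest value in the plot, and SESN2, TRIB3, ASNS and CHAC1 are at 0.

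Coverage was compared as the number of bases under peaks in the 2 kb around the gene start. In this sum, separate peaks add up and only bases inside the window count. In shLacZ and shRRN3 this was 262 and 1273 bp at ATF4, 95 and 97 bp at DDIT3, 256 and 807 bp at PPP1R15A, 379 and 1626 bp at HSPA5, and 380 and 1125 bp at XBP1. The ratios were 4.86, 1.02, 3.15, 4.29 and 2.96, with a median of 3.15. The shRRN3 values of PPP1R15A and HSPA5 each join 2 peaks. At PPP1R15A the peak over the start alone was 256 bp wide in shLacZ and 437 bp in shRRN3. Over the 1343 genes with a start peak in both lists the median ratio was 1.49, with quartiles of 1.13 and 2.08. With DDIT4, 6 of the 10 genes had more covered bases in shRRN3, against 23.6% of all genes. All 5 with a peak in both lists did, where 85.3% of such genes did, and 4 of 5 had at least 2 times as many, against 26.8%. In shLacZ all 5 values lay below 490 bp, the median over all genes with a start peak. In a window of fixed length, large ratios were thus more open to them.

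The low ratio at DDIT3 comes from the window, since most of its peak lies further into the annotated span. Around the start of the representative transcript, DDIT3 had 420 and 1320 covered bases, and ATF4 had 836 and 1840. The ratio of 4.86 at ATF4 thus also rests on the window. The start window of HSPA5 stood at place 1109 among all genes by covered bases in shLacZ and at 95 in shRRN3.

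Places in the list tell the same genes apart in another way, a comparison chosen after the values were seen. From shLacZ to shRRN3 the best start peak went from place 3697 to 352 at HSPA5, from 3134 to 1146 at XBP1 and from 2050 to 1178 at DDIT3. At ATF4 it went from 192 to 224 and at PPP1R15A from 3178 to 6374. So 3 of the 5 stood at a higher place in the longer list, against 36.3% of the 1343 genes, whose median change was a loss of places (−718). HSPA5, with 3345 places gained, was the fifth of those genes, while PPP1R15A, at −3196, was at 999. A gene cannot gain more places than lie above it in shLacZ, so a large gain was open only to weak shLacZ peaks. That of HSPA5 scored 51.37, where the lowest score in the list was 50.03, while ATF4 at place 192 had little room to gain.

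**Figure D3:**
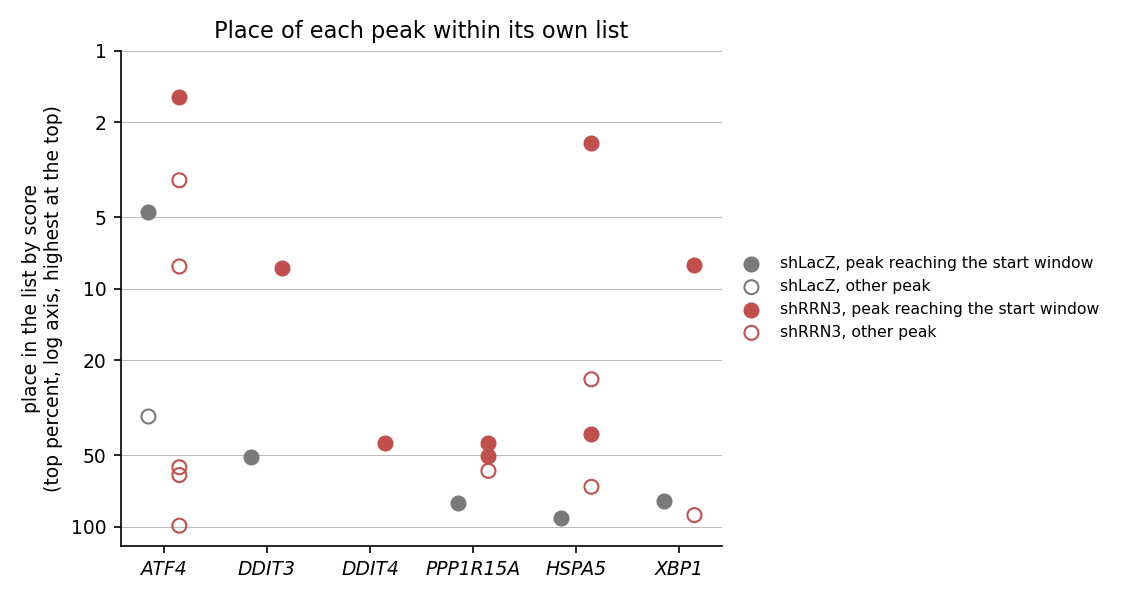
Place of each member's peaks within its own list, as the percentage of peaks with a score at least as high (log axis, highest scores at the top), for shLacZ in grey and shRRN3 in red, with filled points for peaks that reach the start window and open points for the others. The start peaks of HSPA5, XBP1, DDIT3, PPP1R15A and ATF4 stand at 92.1%, 78.1%, 51.1%, 79.2% and 4.78% in shLacZ and at 2.45%, 7.98%, 8.20%, 44.4% and 1.56% in shRRN3, where the medians over all genes with a start peak in both lists are 39.4% and 15.9%.

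In the body, ATF4 and DDIT3 carried a peak in shLacZ, against 6.14% of all genes, and in shRRN3 ATF4, DDIT3, PPP1R15A, HSPA5 and XBP1 did, against 19.8%. Among genes that span less than 50 kb these shares were 3.54% and 13.1%. The shLacZ body peaks of ATF4 and DDIT3 were their start peaks, which reach into the annotated body because the representative transcript begins inside the span. In shRRN3 the body peak of DDIT3 was again its start peak, and that of ATF4 is counted among its body peaks. From 1 kb past the representative start, the body held 489 covered bases at ATF4 and 244 at DDIT3 in shRRN3. Body peaks covered 574 and 1195 bp at ATF4, 325 and 1467 bp at DDIT3, and in shRRN3 alone 730 bp at PPP1R15A, 444 bp at HSPA5 and 208 bp at XBP1. Among genes with a start peak, 2 of 5 members in shLacZ and 5 of 6 in shRRN3 had a peak reaching the body, against 17.8% and 37.4% of all such genes. The peak in the body could be the start peak itself.

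Past the end, ATF4 carried a peak in both lists, against 2.25% of all genes, and HSPA5 in shRRN3 alone, against 6.43%. Among genes with a start peak this was 1 of 5 members in shLacZ and 2 of 6 in shRRN3, against 8.18% and 17.6%. HSPA5 had 179 covered bases there, from the peak over its end, which placed it at 1670. Start, body and past the end all held a peak at ATF4 in shLacZ, against 0.265% of all genes, and at ATF4 and HSPA5 in shRRN3, against 2.23%. In these counts 1 peak can serve 2 regions, for members and for all genes. At ATF4 in shLacZ the start and body held the same peak. At HSPA5 the peak past the end was the one over the end, which also counts in the body.

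A start shared with another gene bears on which gene a peak belongs to. The start of a gene on the other strand lay within 1 kb of the representative start of DDIT3, DDIT4, HSPA5 and XBP1, that is 4 of 10, against 26.6% of all genes. Among genes with a start peak the members' counts were 3 of 5 in shLacZ and 4 of 6 in shRRN3, against 45.6% in either list. ATF4 and PPP1R15A were the members with a start peak and no such neighbour.

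A further 86 genes of these pathways, listed by role, were counted in the same way. Of them 15 had a start peak in shLacZ (17.4%, interval 10.1% to 27.1%) and 39 in shRRN3 (45.3%, interval 34.6% to 56.5%), with 14 in both lists. They had a median of 446 covered bases at the start in shLacZ and 749 in shRRN3, against 490 and 675 over all genes with a start peak. The 1 gene with a start peak in shLacZ alone was DNAJB9, a cochaperone of BiP, with a score of 117.96 at place 602. Around the start of the representative transcript, 16 of the 86 genes had a peak in shLacZ and 39 in shRRN3.

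**Figure D4:**
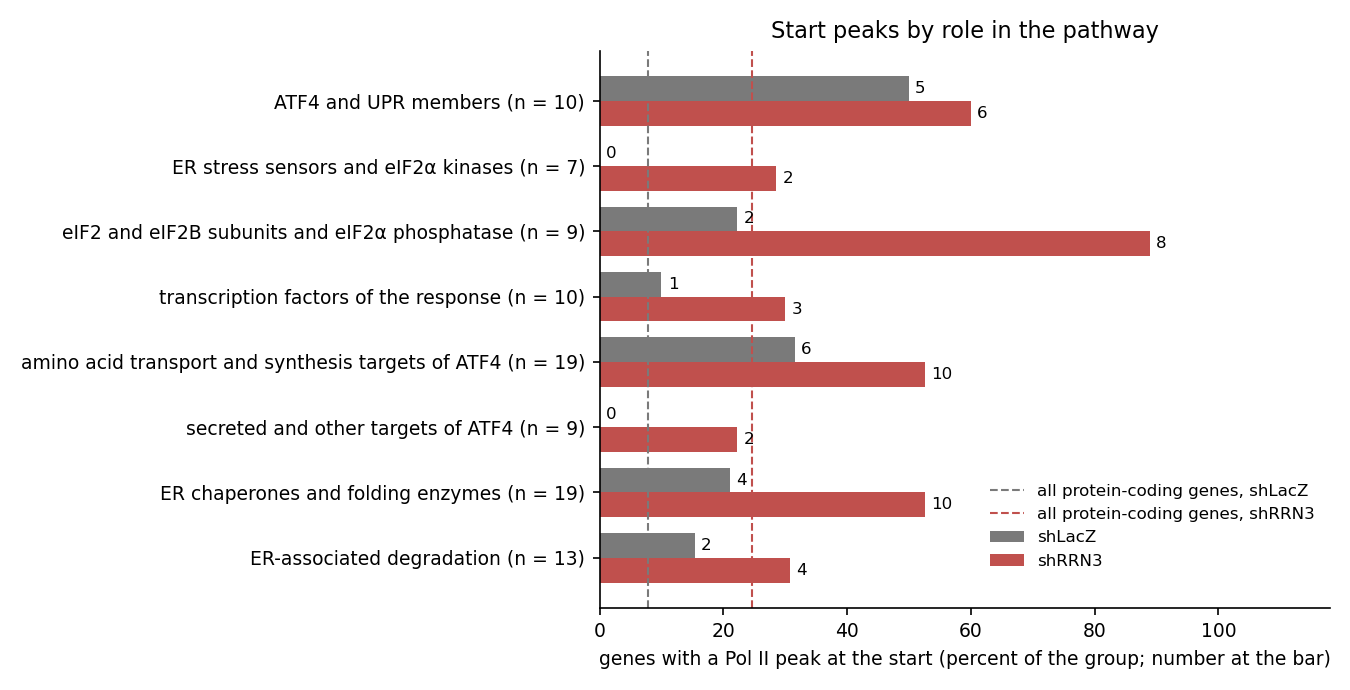
Percentage of genes with a Pol II peak at the start in shLacZ (grey) and shRRN3 (red), with the number at each bar, for the 10 members and the 86 other pathway genes by role, and dashed lines at the shares over all protein-coding genes (7.75% and 24.6%). The translation initiation factor group has 8 of 9 genes with a start peak in shRRN3, and the sensor group has 2 of 7.

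Among 7 genes for ER stress sensors and eIF2α kinases, none had a peak at the first annotated base in shLacZ and 2 did in shRRN3. They were EIF2AK4, the kinase GCN2 that senses lack of amino acids, with a score of 297.17 at place 360, and ERN1, which encodes IRE1, with 94.73 at place 4627. Among 9 genes for eIF2, its exchange factor eIF2B and the eIF2α phosphatase, 2 had a start peak in shLacZ and 8 in shRRN3. EIF2B3 and EIF2S1, which encode a subunit of eIF2B and eIF2α itself, had one in both, at places 1315 and 2778 in shLacZ and 3392 and 4323 in shRRN3.

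Beside ATF4, 1 of 10 transcription factor genes had a start peak in shLacZ and 3 in shRRN3. CEBPB, a C/EBP factor, stood at places 1688 and 4395. NFE2L2, which encodes the oxidative stress factor NRF2, stood at 1884 and ATF5 at 2997 in shRRN3 alone. At NFE2L2 this start is the outermost annotated base, and the body held peaks scoring up to 153.00 in shLacZ and 272.44 in shRRN3. Whether these lie at the start of another transcript was not tested.

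Among ATF4 targets in amino acid transport and synthesis, 6 of 19 had a start peak in shLacZ and 10 in shRRN3. SLC3A2, the heavy chain of several amino acid transporters, scored 342.68 at place 104 in shLacZ and 1025.86 at place 34 in shRRN3. Each stood above every peak of the 10 members in the same list. The shRRN3 peak was 5814 bp wide, with 1713 bp inside the start window, and the best score in the body was 287.44. Most of that peak thus lay upstream of the window, and which gene its signal belongs to was not tested. SLC38A2, a neutral amino acid transporter, stood at 282 and 1094, and ALDH1L2, a mitochondrial folate enzyme, at 397 and 1024. Thus these targets had start peaks where ASNS had none. Of 9 secreted and other targets, GDF15 and SESN1 had a start peak in shRRN3, at places 3887 and 4708, and none had one in shLacZ.

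Of 19 ER chaperones and folding enzymes other than BiP, 4 had a start peak in shLacZ and 10 in shRRN3. The highest places in shLacZ were those of DNAJB9, PPIB at 892 and PDIA3 at 1315, and those in shRRN3 were DNAJC3 at 723, CALR at 996 and MANF at 1668. These 3 stood lower in the shRRN3 list than the HSPA5 start peak at 352. In ER-associated degradation, which returns misfolded proteins for destruction, 2 of 13 had a start peak in shLacZ and 4 in shRRN3. SYVN1, a ubiquitin ligase, stood at 311 and 1803, HERPUD1 at 1042 and 495, and EDEM1 at 2034 in shRRN3.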

How the data were processed

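Pol II ChIP-seq peak lists of 1 shLacZ and 1 shRRN3 library were used. The authors called peaks in each library, and the deposited lists give position, name and a score per peak. The names carry the program MACS. Its version, its threshold, whether the input served as control, the aligner and the scale of the score are not given in the sources used here. The submitters' processing notes name hg38. Coordinates were converted to count from 1.

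Genes, spans and representative transcripts (MANE Select, otherwise Ensembl canonical) came from GENCODE release 44, and promoter sequences from RefSeq (GRCh38.p14), with all 10 genes matched. Overlaps were checked against bedtools 2.31.1, and the window code was tested on simulated lists. Tables were made with pandas 2.3.3 and numpy 2.4.6, intervals with scipy 1.17.1 and figures with matplotlib 3.10.9, in Python 3.11.15.

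The text names all 10 members, other genes under their peaks and, per role, up to 3 pathway genes with the highest-scoring start peak in each list, plus any with one in shLacZ alone. Members and lists were chosen with earlier results of these data known. Alternatives were other windows, midpoints, the representative start, a score minimum, shorter genes, peaks at other starts left out, and a shRRN3 list cut to the 3920 peaks of highest score. Groups were taken from the labels. With 1 library each, no test was possible.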

Additional observations from a re-analysis of the deposited data

How the results depend on the processing

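Of 39 values recomputed for 9 results, 30 stayed within 1.5 times the value reported. The count of 5 members with a start peak in shLacZ became 3 with a window of 0.5 kb and 3 when the midpoint had to lie in the window, in both cases HSPA5, PPP1R15A and XBP1, against 7.22% and 7.56% of all genes. It became 1, ATF4, against 4.58%, with a score of at least 65.58, the shLacZ median on the primary chromosomes, where shRRN3 kept all 6, against 18.6%. With the shRRN3 list reduced to 3920 peaks, 4 members (ATF4, DDIT3, HSPA5 and XBP1) had a start peak against 10.2% of all genes, other pathway genes with one fell to 16, and members with a body peak to 3. Members with a body peak in shLacZ became 0 with the body taken from 2 kb past the start (5.44% of all genes), and 0 from 1 kb past the representative start, an alternative chosen after seeing the data, as was the midpoint around the representative start, which left the start counts at 5 and 6. Past the end, the shLacZ count became 0 within 2 kb (1.51% of all genes), and the shRRN3 count became 1 by midpoint, ATF4. The cause was not tested beyond what each construction fixes, which is fewer peaks or other bounds. No paired analysis was possible because each hairpin had 1 library. Depth, unknown here, limits every statement on a missing peak.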

Other observations

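Several other genes of the pathways carried peaks away from their starts, chosen here after their values were seen. SLC3A2 had 945 covered bases in the 5 kb past its end in shLacZ and 3039 in shRRN3, and SLC38A2 had 570 and 1304. CALR, which encodes an ER chaperone, had 673 and 1419. EIF2AK4 had none past its end in shLacZ and 1837 in shRRN3, and HSP90B1, which encodes another ER chaperone, had none and 1034. SLC7A11, a cystine transporter gene, had 132 in shLacZ and none in shRRN3.

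In the body, NFE2L2 carried 4 peaks covering 1409 bp in shLacZ and 12 covering 6160 bp in shRRN3. The window at its first annotated base had a peak in shRRN3 alone. SLC38A2 carried 3 body peaks covering 838 bp and 7 covering 3318 bp. EIF2AK3, which encodes PERK, had no peak within 1 kb of its first annotated base in either list. Its body had 417 covered bases in shLacZ and 1649 in shRRN3. For these genes the body runs from 1 kb past the first annotated base. It can therefore hold the start of another transcript, which was not examined. These values are descriptions of 1 library per hairpin.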
